A study of Mus musculus with 11 samples.

Results

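The BCL2 family decides whether a cell starts apoptosis through its mitochondria. Effectors (Bax, Bak1) open pores in the outer mitochondrial membrane, anti-apoptotic members (Bcl2, Bcl2l1, Mcl1) hold the effectors and their activators back, and BH3-only members (Bbc3, Pmaip1, Bid, Bcl2l11, Bad) sense stress or lost survival signals and release the brake or activate the effectors. In the fetal mouse gonad a share of germ cells dies by apoptosis, and mouse genetics ties Bcl2l1 and Bax to germ cell survival. The RNA of 10 listed members was followed in sorted fetal germ cells. Members were found by their gene symbol in the probe annotation of an Illumina BeadChip. Of the 10 genes, 9 had at least 1 probe under their symbol, with 28 probes in all among the 45281 probes of the array. Bax, an effector, had no probe under its symbol and is not analysed here. A probe was kept for testing when its detection p-value, which compares it with the array's negative controls, fell below 0.01 on 2 or more of the 11 arrays. This held for 20 of the 28 member probes and for 21943 probes of the array, and each of the 9 genes had at least 1 probe kept.

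The cells came from gonads of mouse embryos bred from CBA/CaJ X C57BL/6J hybrids (generation F16+) crossed to Hsd:ICR(CD-1), and carried green fluorescent protein under Pou5f1 regulation, which marks germ cells. Every sample, the control included, was sorted by fluorescence from such embryos. Germ cells were taken at 3 embryonic stages, E11.5, E13.5 and E15.5, in 3 biological replicates per stage. The E11.5 samples are labelled male/female and the later ones male. Cells without GFP from E13.5 male gonads, here called non-germ cells, a mixture of all other gonadal cells that has no counterpart at the other ages, had 2 replicates. The labels do not give the number of embryos in a replicate. The step from E11.5 to E13.5 also goes from mixed-sex to male cells, and these cannot be told apart.

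The sort was visible in the data. Pou5f1, Ddx4 and Dazl, 3 germ cell genes, were detected on all 9 germ cell arrays and on neither non-germ array. Between 14860 and 18657 probes were detected per array. E15.5 replicate 2 stood apart. The mean log2 level of 11 measured interstitial cell markers was 9.83 on it, against 6.35 and 6.39 on the other E15.5 arrays and 10.7 on both non-germ arrays. Its 11 measured Sertoli cell markers averaged 8.75 (6.21 and 7.05 on the others), its 6 fetal Leydig cell markers 8.75 (6.42 and 6.00) and its 6 erythroid markers 8.9 (6.24 and 6.48). Of the 8 germ cell markers, the mean there was 10.1, against 10.5 and 10.6. Calls of member probes that leaving out this array changed are given below. Some somatic transcripts were not limited to it. Sox9, a Sertoli cell gene, averaged 10.79 ± 1.08 at E15.5 (SD, n = 3), 6.64 ± 1.68 in E13.5 germ cells and 11.73 ± 0.709 in non-germ cells (n = 2). Pdgfra, an interstitial gene, averaged 10.67 ± 1.3, 6.82 ± 0.481 and 12.60 ± 0.0894 in the same groups, and the globin gene Hba-a1 9.16 ± 2.82, 5.14 ± 0.121 and 12.89 ± 1.45. All 3 genes were detected on every E15.5 array. Amh, Cyp11a1 and Pecam1, checked the same way, are poor measures of such a rise. Amh was low even in non-germ cells, and the other genes were no higher there than in E13.5 germ cells. Means in E13.5 germ cells, E15.5 germ cells and non-germ cells were 5.23, 5.55 and 5.88 for Amh, undetected in both germ cell groups. They were 7.13, 7.09 and 6.99 for Cyp11a1 and 10.62, 9.34 and 8.56 for Pecam1. The interstitial marker mean was 5.48, 5.64 and 5.84 on the E13.5 germ cell arrays. The part of somatic transcripts in the E15.5 differences below was not tested.

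To show the DNA next to the values, the 250 bases before the first listed start site are printed for 5 members whose probes differed between groups, from RefSeq on build GRCm38.p6, in the direction of transcription. Pmaip1 has no entry in the table used. Capitals mark 3 motifs, searched on both strands. The GC box is spelled GGGCGG or, reversed, CCGCCC. The CCAAT box is CCAAT or, reversed, ATTGG. The FOXO site is GTAAACA or, reversed, TGTTTAC.
Bcl2, chr1:106714291-106714540, minus strand: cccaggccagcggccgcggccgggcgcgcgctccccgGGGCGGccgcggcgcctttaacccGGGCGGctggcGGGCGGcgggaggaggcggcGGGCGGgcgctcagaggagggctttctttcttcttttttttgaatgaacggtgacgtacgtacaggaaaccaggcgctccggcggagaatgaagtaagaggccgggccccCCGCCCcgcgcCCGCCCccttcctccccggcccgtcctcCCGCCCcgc
Bcl2l1, chr2:152828490-152828739, minus strand: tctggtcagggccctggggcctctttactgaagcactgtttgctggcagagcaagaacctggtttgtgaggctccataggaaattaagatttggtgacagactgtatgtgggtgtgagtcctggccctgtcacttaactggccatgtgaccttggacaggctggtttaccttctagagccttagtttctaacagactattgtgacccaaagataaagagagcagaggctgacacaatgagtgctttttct
Bid, chr6:120916825-120917074, minus strand: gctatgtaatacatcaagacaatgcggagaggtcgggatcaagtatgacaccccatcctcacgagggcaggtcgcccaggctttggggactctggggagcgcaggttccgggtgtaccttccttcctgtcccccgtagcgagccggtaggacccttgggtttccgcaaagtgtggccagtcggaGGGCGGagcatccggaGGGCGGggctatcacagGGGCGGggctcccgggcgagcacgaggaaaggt
Bcl2l11, chr2:128125788-128126037, plus strand: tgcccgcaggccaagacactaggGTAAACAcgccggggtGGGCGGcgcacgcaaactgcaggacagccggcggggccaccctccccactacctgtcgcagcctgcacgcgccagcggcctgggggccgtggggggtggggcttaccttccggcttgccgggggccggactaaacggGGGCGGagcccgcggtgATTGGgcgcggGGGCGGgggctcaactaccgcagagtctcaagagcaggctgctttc
Bad, chr19:6941611-6941860, plus strand: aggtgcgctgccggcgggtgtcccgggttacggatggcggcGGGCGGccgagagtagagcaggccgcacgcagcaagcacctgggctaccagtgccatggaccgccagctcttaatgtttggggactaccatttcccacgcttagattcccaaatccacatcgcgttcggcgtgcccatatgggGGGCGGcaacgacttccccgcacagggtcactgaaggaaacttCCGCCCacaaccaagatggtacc
The Bcl2 window held 7 GC boxes and was 74.8% G and C. Bid, Bcl2l11 and Bad held 3 GC boxes each, and Bcl2l1 held none, at 48.4% G and C. Among all 32851 RefSeq windows of this length, 32.7% held a GC box, 33.8% a CCAAT box and 3.17% the FOXO sequence. Of the 15 windows listed for the members, some genes having several, 10 held a GC box, 4 a CCAAT box and 2 the FOXO sequence, in a window of Bcl2l11 and one of Bbc3. None of the 15 held TATAAA or TTTATA, which 12.4% of all windows hold. A match is a run of letters and says nothing of binding.

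Levels are given as normalized log2 intensities, on which a step of 1 is a doubling, and only within a probe, because probes differ in brightness. Where a probe was undetected on all arrays of a group, its value there is only an upper limit. The fold is then a lower bound, set against each array's lowest detected signal. Differences are group means subtracted, with the standard error (SE) of a limma fit over all 11 arrays and p-values adjusted by Benjamini-Hochberg over the 21943 kept probes. A probe was called when its adjusted p was below 0.05. In bulk RNA, fewer cells expressing a gene and less RNA per cell cannot be told apart.

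**Figure D1:**
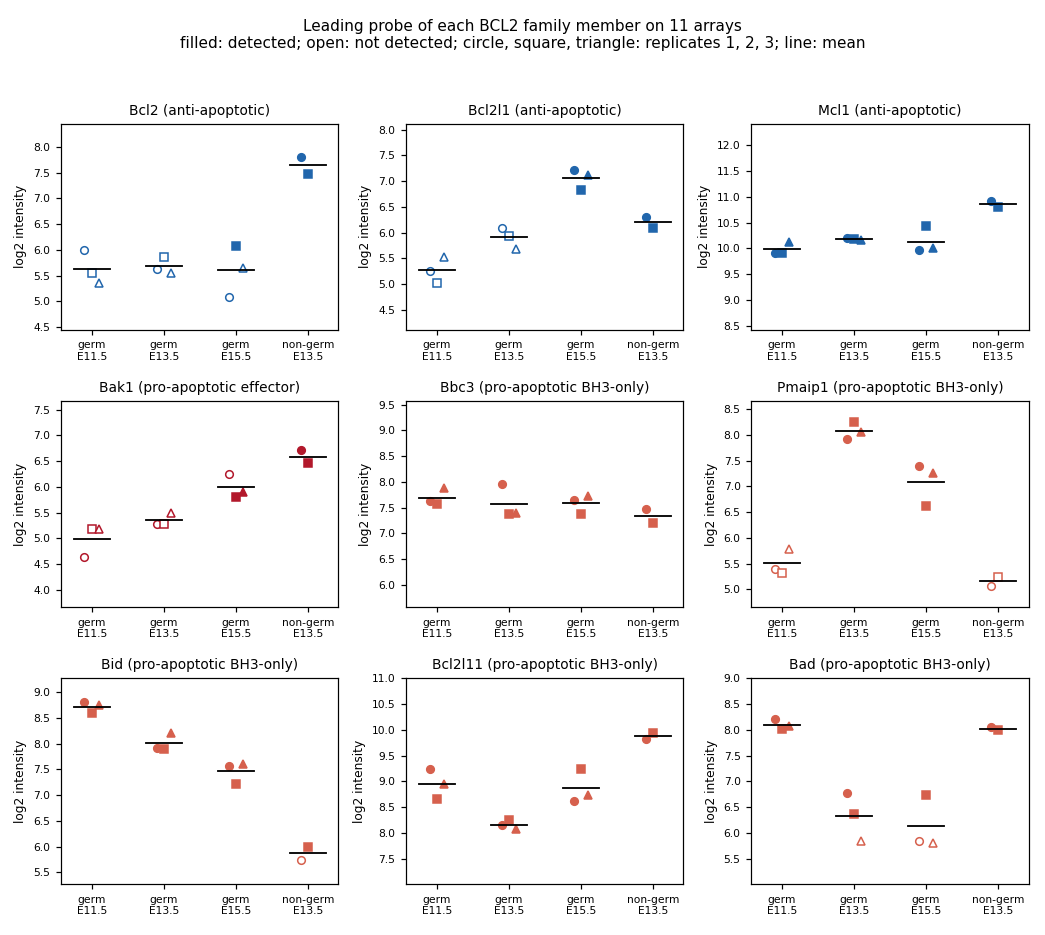
Normalized log2 intensity of the leading probe (the kept probe with the highest mean) of each of the 9 measured members on each array, by group, with filled points detected, open points not detected and lines at group means. Pmaip1 peaks at E13.5, Bid and Bad are highest at E11.5 among germ cells, Bcl2l1 is highest at E15.5, and Bcl2 lies highest in the non-germ cells.

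Against the non-germ cells of the same age, E13.5 germ cells had less RNA for the anti-apoptotic genes Bcl2 and Mcl1 and the effector Bak1. RNA for the BH3-only genes Bcl2l11 and Bad was also lower, and that for Pmaip1 higher. Bid, also BH3-only, was higher on its leading probe, while its second probe lay the other way and was not called. Of the 20 member probes, 14 were called, 4 higher and 10 lower in germ cells, where 53% of all kept probes were called (29.4% higher and 23.7% lower). Of the 8 anti-apoptotic probes 6 were lower and none higher, but 5 of the 6 were Bcl2 probes, which the filter kept through the non-germ arrays. With detection asked on at least 3 arrays, 11 member probes and 10927 of all probes kept were called. The Bcl2 probes ILMN_2682162, ILMN_2706514 and ILMN_2597567, detected only on the 2 non-germ arrays, were then not tested. Of the 11 BH3-only probes 4 were higher and 3 lower, and the single effector probe was lower. The groups did not overlap for 16 of the 20, against 72.4% of all kept probes. The median difference of the member probes was -0.69 and that of all kept probes 0.157. Under cyclic loess scaling the latter moved to -0.064, and no called member difference changed direction.

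Bcl2, the founding anti-apoptotic member, had 9 probes, of which 5 were kept. All 5 met the filter through the 2 non-germ arrays, so their number and shared direction are no support of one another. Its leading probe (ILMN_1249366) read 6.00, 5.55 and 5.35 on the E11.5 arrays, then 5.64, 5.87 and 5.55 on those of E13.5, then 5.09, 6.08 and 5.65 on those of E15.5, and 7.81 and 7.48 in non-germ cells. A second probe (ILMN_1249021) read 5.71, 4.93 and 5.03, then 4.83, 4.98 and 5.10, then 5.12, 7.02 and 4.96, and 9.13 and 8.95 in the non-germ cells. Both non-germ arrays lay above every germ cell array on both probes. Of the 9 germ cell arrays, each probe was detected on 1, and for both this was E15.5 replicate 2, the array with the high interstitial markers, whose part in these values was not tested. Bcl2 was at least 2.78-fold lower in E13.5 germ cells by the leading probe (adjusted p = 0.00022) and at least 7.35-fold lower by the second (adjusted p = 6.35e-05). The other 3 kept probes gave bounds of at least 1.96, 1.93 and 1.4-fold lower, with adjusted p of 0.00184, 5.22e-05 and 0.000214. No Bcl2 probe was called between germ cell stages with all arrays. Without E15.5 replicate 2, the probe ILMN_2706514, undetected on every germ cell array, was called lower at E15.5 than at E11.5 (adjusted p = 0.0335). On the leading probe the group means, 5.63 ± 0.332, 5.69 ± 0.165 and 5.61 ± 0.5 (SD, n = 3 each), differed by less than their spread. The remaining 4 Bcl2 probes failed the detection filter and were not tested. Their means in E13.5 germ cells and non-germ cells were 5.40 and 5.48 (ILMN_1243345), 5.50 and 5.32 (ILMN_2597272), 4.77 and 5.04 (ILMN_2500078), and 4.52 and 5.93 (ILMN_1215796). In neither group did the first 3 have a detected array, and the fourth was detected on 1 non-germ array.

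**Figure D2:**
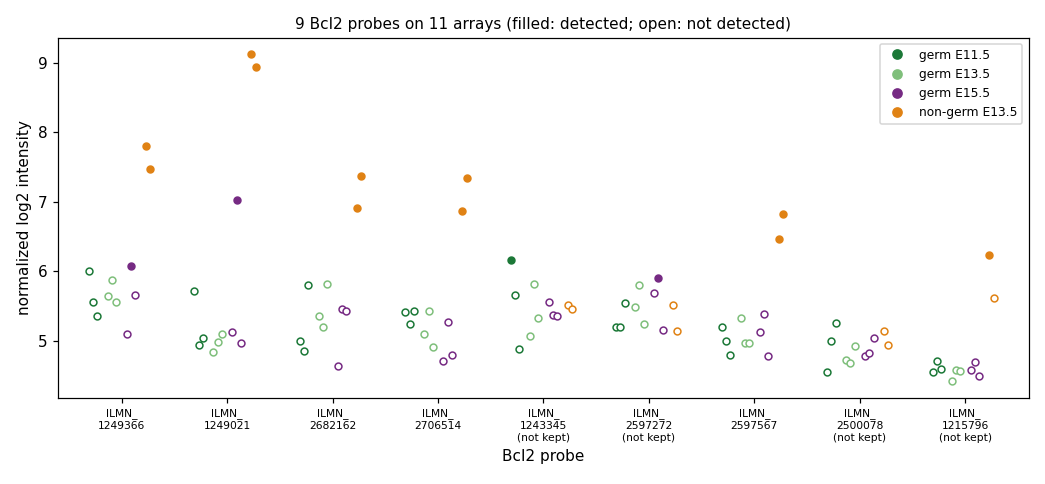
Normalized log2 intensity on each array for the 9 Bcl2 probes, by group, with filled points detected and open points not detected. On the 5 kept probes both non-germ arrays lie above all 3 E13.5 germ cell arrays, and germ cell values sit mostly near the undetected level.

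Mcl1, an anti-apoptotic member with a short-lived protein, was detected on all 11 arrays. It read 9.92, 9.92 and 10.13 in E11.5 germ cells, then 10.20, 10.19 and 10.16 (E13.5), then 9.96, 10.43 and 10.01 (E15.5), and 10.92 and 10.81 in non-germ cells. E15.5 overlapped with both earlier stages, the E13.5 arrays lay just above the E11.5 arrays, and no difference between stages was called (adjusted p from 0.507 to 0.841). Mcl1 was 1.6-fold lower in E13.5 germ cells than in non-germ cells (difference -0.68 ± 0.19 SE, adjusted p = 0.00943). This call was lost without non-germ replicate 1 (adjusted p = 0.0696). Transcription of Mcl1 responds quickly to stress, so immediate-early genes were read beside it. The mean of 13 such genes was 8.5, 8.76 and 8.58 on the E11.5 arrays and 7.68, 7.82 and 7.51 on the E13.5 germ cell arrays. It was 10.4 and 10.3 on the non-germ arrays, and 10.4 on E15.5 replicate 2, against 8.76 and 8.53 on the other E15.5 arrays. From E11.5 to E13.5 this mean fell, and Mcl1 had no called difference. Among germ cell arrays, both this mean and Mcl1 were highest on E15.5 replicate 2. The part of these genes in the Mcl1 values was not tested.

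Bak1, the measured effector, was near the detection limit. Its probe read 4.63, 5.18 and 5.18 in E11.5 germ cells, then 5.28, 5.28 and 5.49 (E13.5), then 6.26, 5.81 and 5.90 (E15.5), and 6.71 and 6.47 in non-germ cells, and was detected on 2 E15.5 arrays and both non-germ arrays. Both non-germ arrays lay above every germ cell array, and the E15.5 arrays above all earlier ones. Because no E11.5 or E13.5 array detected Bak1, the order of these stages cannot be read, and their difference was not called (adjusted p = 0.278). Bak1 was at least 1.34-fold lower in E13.5 germ cells than in non-germ cells (adjusted p = 0.000755). On the authors' rescaled intensities this difference was not called (adjusted p = 0.0895).

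Pmaip1 (NOXA), a BH3-only protein that binds MCL1, was detected in E13.5 germ cells and not in the non-germ cells. On its leading probe the deposited intensities before any correction were 488.6, 581.3 and 439.1 at E13.5 and 226.3 and 239.4 in non-germ cells. After normalization this probe (ILMN_2724526) read 7.93, 8.25 and 8.05 in E13.5 germ cells and 5.07 and 5.25 in non-germ cells. Germ cells were at least 4.78-fold higher (adjusted p = 6.58e-06), and the other probes gave at least 3.97-fold (ILMN_2670625, adjusted p = 6e-05) and at least 3.62-fold (ILMN_1245289, adjusted p = 0.000116). All 3 Pmaip1 probes were detected on every E13.5 germ cell array and on neither non-germ array. ILMN_1245289 met the filter only through the E13.5 germ cell arrays, so its direction is no support for the other probes.

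Bid, which caspase-8 cleaves to link death receptors with mitochondria, had probes that disagreed. Its leading probe (ILMN_3161878) read 7.92, 7.89 and 8.21 in E13.5 germ cells and 5.74 and 6.00 in non-germ cells, a 4.39-fold higher level in germ cells (2.14 ± 0.19 SE, adjusted p = 9.89e-06). Of the non-germ arrays only 1 detected this probe, so the fold depends on the background correction and offset. Over the alternatives the difference ran from 0.64 to 2.26. The second Bid probe (ILMN_2757287) read 7.11, 6.80 and 6.60 in germ cells and 7.47 and 7.59 in non-germ cells, which lies the other way without passing the test (-0.69 ± 0.39 SE, adjusted p = 0.16). It passed under 4 alternatives, cyclic loess among them. Where these probes lie on the Bid transcripts was not analysed here.

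Bcl2l11 (BIM) activates effectors and binds all main anti-apoptotic members. Its leading probe (ILMN_3157568) read 8.16, 8.24 and 8.07 in E13.5 germ cells and 9.82 and 9.94 in non-germ cells, 3.3-fold lower in germ cells (-1.72 ± 0.23 SE, adjusted p = 0.000106). A second Bcl2l11 probe (ILMN_2590638) was 2.87-fold lower (adjusted p = 0.00344), and the third (ILMN_1229255) was detected in neither group. Bad, a BH3-only protein held inactive by survival-factor signalling, read 6.77, 6.36 and 5.85 in germ cells and 8.06 and 7.99 in non-germ cells, 3.24-fold lower in germ cells (-1.70 ± 0.31 SE, adjusted p = 0.000916). For both genes every germ cell array at E13.5 lay below both non-germ arrays. Bbc3 (PUMA), a p53 target, was detected on all 11 arrays by its leading probe, which ran from 7.38 to 7.95 at E13.5 and read 7.48 and 7.19 in non-germ cells. The Bbc3 groups overlapped (0.24 ± 0.22 SE, adjusted p = 0.383). Bcl2l1 was not called either, with -0.29 on its leading probe (adjusted p = 0.267).

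**Figure D3:**
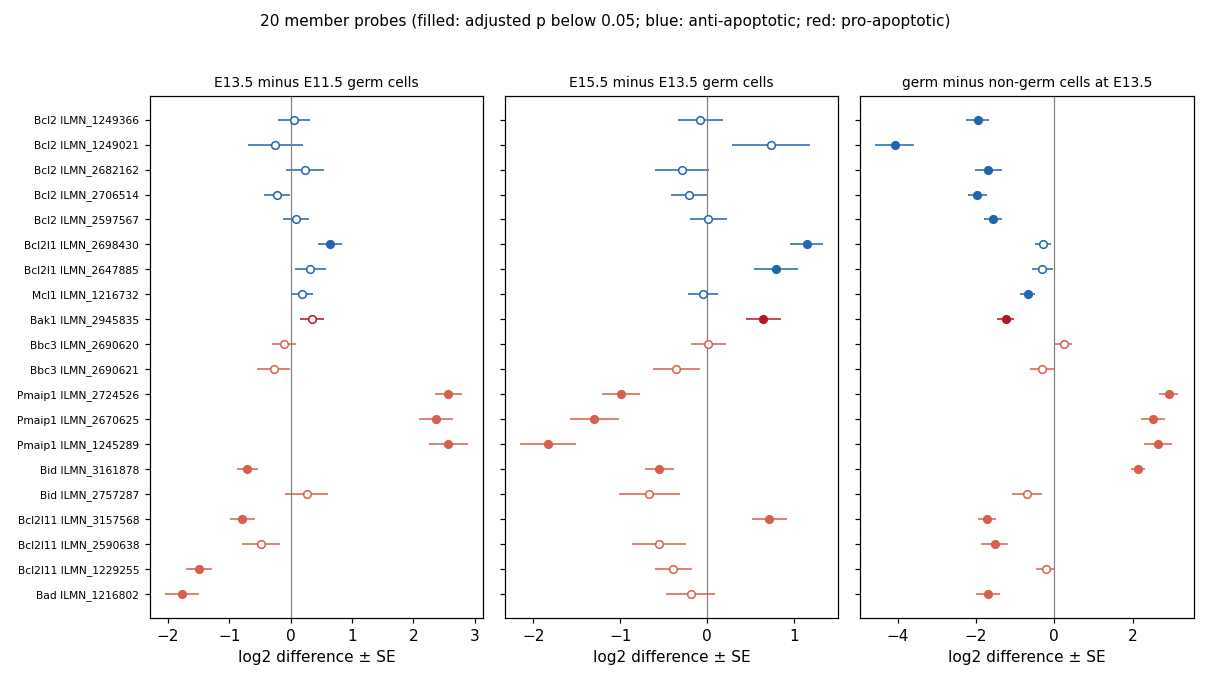
Log2 difference with its SE (bars) for each of the 20 kept member probes in 3 comparisons, with filled points called at an adjusted p below 0.05, blue for anti-apoptotic and red for pro-apoptotic members. All 3 Pmaip1 probes are called in each comparison, Bbc3 in none, and Mcl1 and Bcl2 only between germ and non-germ cells.

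From E11.5 to E13.5, as germ cells reached the fetal testis stage, RNA for Pmaip1 rose and RNA for Bad fell. Bcl2l11 was lower on its leading probe and on ILMN_1229255, while its second probe, ILMN_2590638, was not called (-0.49, adjusted p = 0.337). The leading Bid probe also fell, and the second was not called. Of the 20 member probes, 4 were higher and 4 lower at E13.5, or 8 called, where 15.3% of all kept probes were called (8.55% higher and 6.74% lower). All 3 Pmaip1 probes are among the higher ones, so probes of 1 gene make up most of that count. The fourth was a Bcl2l1 probe that neither stage detected, and its call was lost under 14 alternative settings. Groups did not overlap for 10 of the 20 member probes, against 37.8% of all kept probes. The median member difference was 0.07, beside -0.002 for all kept probes.

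Pmaip1 went from undetected at E11.5 to detected on every E13.5 array. Its leading probe read 5.40, 5.32 and 5.79 at E11.5, then 7.93, 8.25 and 8.05, and 7.39, 6.62 and 7.26 at E15.5. The probe ILMN_2670625 read 5.89, 5.08 and 5.36, then 7.84, 8.10 and 7.49, then 7.03, 6.24 and 6.26. The probe ILMN_1245289 read 5.25, 5.17 and 4.91, then 7.71, 8.09 and 7.23, then 6.65, 5.43 and 5.45. On each probe the E13.5 arrays lay above all arrays of both other stages. The rise was at least 3.89-fold, 3.23-fold and 2.95-fold by the 3 probes in that order (adjusted p = 4.43e-05, 0.000268 and 0.000412). Since ILMN_1245289 was kept through the E13.5 arrays alone, its peak there is no support for the other probes.

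**Figure D4:**
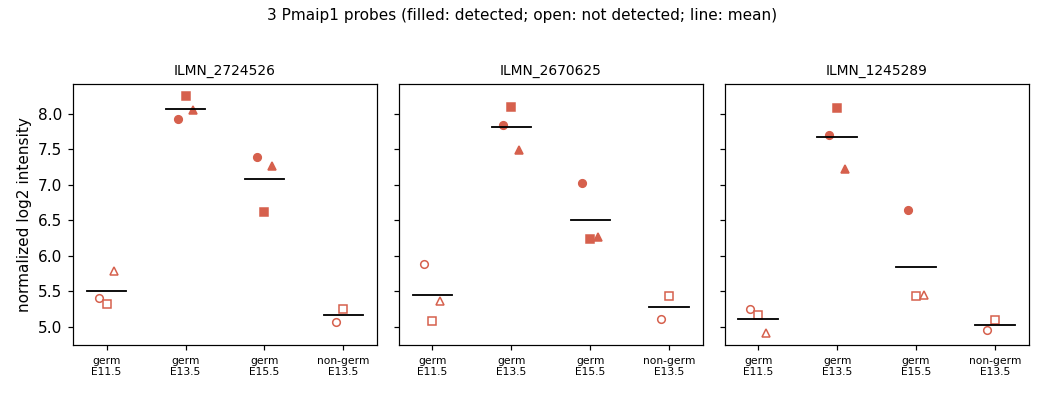
Normalized log2 intensity of the 3 Pmaip1 probes on each array, by group, with the group mean as a line, filled points detected and open points not detected. On every probe the 3 E13.5 germ cell arrays lie above all others, and the E11.5 and non-germ arrays are undetected.

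Among the called member probes Bad had the largest fall. It read 8.21, 8.01 and 8.07 in E11.5 germ cells, then 6.77, 6.36 and 5.85 (E13.5), then 5.85, 6.74 and 5.80 (E15.5), and was detected on 3, 2 and 1 of the arrays, at E15.5 on replicate 2 with its high somatic markers. The E11.5 arrays lay above all later ones, and E13.5 and E15.5 overlapped. Bad was 3.41-fold lower at E13.5 than at E11.5 (-1.77 ± 0.28 SE, adjusted p = 0.00169). The later step was not called (-0.19, adjusted p = 0.623).

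The leading probes of Bid and Bcl2l11 fell less. On its leading probe Bid read 8.81, 8.59 and 8.75 in E11.5 germ cells, then 7.92, 7.89 and 8.21 (E13.5), then 7.57, 7.21 and 7.61 (E15.5), each stage below the one before. The first step was -0.71 ± 0.17 SE (adjusted p = 0.0192), a call lost without E11.5 replicate 1 or 3 or E13.5 replicate 1 or 2. The second Bid probe ran from 6.25 to 6.89 in the E11.5 group and from 6.60 to 7.11 at E13.5, and was not called. The leading Bcl2l11 probe read 9.24, 8.66 and 8.94 in E11.5 germ cells and 8.16, 8.24 and 8.07 in those of E13.5 (-0.79 ± 0.20 SE, adjusted p = 0.0244). That call was lost without E11.5 replicate 1 or 3 or any E13.5 array. Bcl2l11 probe ILMN_1229255 was detected on all 3 E11.5 arrays, at 6.28, 6.98 and 6.24, and on no later array, at least 1.26-fold lower at E13.5 (adjusted p = 0.000897). It met the filter through the E11.5 arrays alone, so its direction is no support for the fall of the leading probe.

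From E13.5 to E15.5, within male germ cells, RNA for Bcl2l1 and Bak1 rose and that for Pmaip1 fell. The leading Bid probe fell and the leading Bcl2l11 probe rose. Again 8 of the 20 member probes were called, 4 higher and 4 lower, beside the 38.3% of all kept probes called (17.5% higher and 20.8% lower). Groups did not overlap for 10, beside 47.8% of all kept probes. The median member difference was -0.20, and that of all kept probes -0.043. Without E13.5 replicate 3 the count of called member probes was 5.

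Bcl2l1 (BCL-XL) was the anti-apoptotic member that moved with stage. Its leading probe (ILMN_2698430) read 5.26, 5.02 and 5.52 in E11.5 germ cells, then 6.10, 5.94 and 5.69 (E13.5), then 7.21, 6.83 and 7.12 (E15.5), beside 6.31 and 6.10 in non-germ cells. The second probe (ILMN_2647885) read 5.70, 5.06 and 5.52, then 5.84, 5.74 and 5.67, then 6.98, 6.00 and 6.65. On both, all E15.5 arrays lay above all E13.5 arrays, and the leading probe was detected on the 3 E15.5 arrays and on no earlier germ cell array. Bcl2l1 was at least 1.85-fold higher at E15.5 than at E13.5 by the leading probe (adjusted p = 0.000797) and at least 1.3-fold by the second (adjusted p = 0.0267). The second probe's call was lost without any 1 of 4 arrays (E13.5 replicate 2 or 3, E15.5 replicate 1 or 3), without background correction and on the authors' rescaled intensities. Against E11.5, the bounds were at least 1.91-fold and 1.34-fold (adjusted p = 2.59e-05 and 0.00352). E15.5 replicate 2, with the high somatic markers, gave the lowest value of its group on both probes.

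Bak1 was undetected at E13.5 and detected on 2 of the 3 E15.5 arrays. Its step was called (adjusted p = 0.0261) but allowed no bound on the fold, and the call was lost without E13.5 replicate 1 or 2 or E15.5 replicate 1, without background correction, on the authors' rescaled intensities and with a trended robust prior. From E11.5 to E15.5 the adjusted p was 0.00186. All 3 Pmaip1 probes fell after E13.5. The leading probe was 1.98-fold lower at E15.5 (-0.99 ± 0.22 SE, adjusted p = 0.00525), and the others changed by -1.30 (adjusted p = 0.0037) and -1.83 (adjusted p = 0.00115). The last of these, ILMN_1245289, was kept through the E13.5 arrays alone, so its fall is no support for the other probes. It was detected on only 1 E15.5 array, so the size of its fall depends on the offset. At E15.5 Pmaip1 was still at least 1.97-fold above E11.5 on the leading probe (adjusted p = 0.000178), while the probe ILMN_1245289 was not called (0.73, adjusted p = 0.0842) unless E15.5 replicate 2 was left out (0.92, adjusted p = 0.0415).

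On its leading probe Bid fell by a further 0.55 on the log2 scale (± 0.17 SE, adjusted p = 0.0293). It ended 2.38-fold below E11.5 (-1.25 ± 0.17 SE, adjusted p = 0.000166). Without E15.5 replicate 2 the later step was -0.43 and was not called (adjusted p = 0.0779), and it was also lost without E13.5 replicate 3, under cyclic loess, on the authors' rescaled intensities and in a fit of only the groups compared. On the leading Bcl2l11 probe E15.5 read 8.62, 9.24 and 8.73, all above the E13.5 arrays (0.71 ± 0.20 SE, adjusted p = 0.0186), and not apart from E11.5 (-0.08, adjusted p = 0.766). The highest of these values came from replicate 2, without which the step was 0.53 (adjusted p = 0.0492), and the call was lost without E13.5 replicate 3. The other Bcl2l11 probes did not rise. ILMN_2590638 read 7.14, 5.93 and 7.43 in E11.5 germ cells, then 6.27, 6.29 and 6.47 (E13.5), then 5.78, 5.73 and 5.82 (E15.5), at least 1.8-fold lower at E15.5 than at E11.5 (adjusted p = 0.0163). That call was lost without E11.5 replicate 1 or 3 and on the authors' rescaled intensities. Over the whole span Bad was 3.89-fold lower (-1.96 ± 0.28 SE, adjusted p = 0.000197). Of the E15.5 arrays only replicate 2, with its high somatic markers, detected Bad. Without that array the difference was -2.28, set against undetected E15.5 values that are only upper limits.

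Across E11.5 to E15.5, 9 of 20 member probes were called, 5 higher and 4 lower, beside 46.2% of all kept probes (21.6% higher and 24.6% lower). The end groups did not overlap for 11, beside 52.4%. The step after E13.5 differed from the step before it for 5 of the 20, 2 upward and 3 downward, where 20.3% of all kept probes did (9.16% upward and 11.2% downward). A test of any change over the 3 stages called 11 of the 20 member probes and 50.7% of all kept probes. On that test the share among the members was near that of the array. For the step from E11.5 to E13.5 alone it was higher, 40% beside 15.3%, with several probes from 1 gene. Called by the test of any change were probes of Pmaip1, Bid, Bcl2l11, Bad, Bcl2l1 and Bak1, and none of Bcl2, Mcl1 or Bbc3. The leading Bbc3 probe read 7.62, 7.56 and 7.87, then 7.95, 7.38 and 7.40, then 7.64, 7.38 and 7.73. Its 3 stages overlapped, with adjusted p from 0.708 to 0.984. The second kept Bbc3 probe, ILMN_2690621, was not called either, though its E11.5 and E15.5 groups did not overlap (-0.64, adjusted p = 0.0762). Without E13.5 replicate 1 that difference was called (adjusted p = 0.0302). No E15.5 array detected this probe.

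The wider apoptosis machinery was read from 6 lists with 71 genes, of which 51 had a kept probe. Each gene stood by its leading probe, and the p-values remain those adjusted over all kept probes. From E11.5 to E13.5, 3 of the 51 rose and 2 fell, beside 17.3% of the leading probes of 11598 genes called. Without E15.5 replicate 2, whose array enters the shared estimate of the spread, 4 rose and 5 fell. From E13.5 to E15.5, 10 rose and 12 fell (41.3% of leading probes called), and from E11.5 to E15.5, 7 rose and 13 fell (49.1%). Without E15.5 replicate 2 these were 11 and 14, and 9 and 12. Between germ and non-germ cells 14 were higher in germ cells and 15 lower (56.2%).

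Of the other BCL2 relatives, 7 of 15 were measured. Bik, a BH3-only gene, had mean levels of 5.71, 7.33 and 5.65 over the 3 stages, and 5.29 in non-germ cells, with detection on 0, 3, 1 and 0 arrays. It rose (adjusted p = 0.00571) and then fell (-1.68 ± 0.32 SE, adjusted p = 0.00181), as Pmaip1 did. The Bik probe met the filter only through the E13.5 arrays, so this shape is no support for that of Pmaip1. Bcl2l2 (BCL-W), an anti-apoptotic relative, averaged 7.81, 8.13 and 9.34 over the 3 stages and 9.62 in non-germ cells. It rose after E13.5 by 1.22 ± 0.14 SE (adjusted p = 9.34e-05) and was lower in E13.5 germ cells than in their non-germ counterparts (-1.50 ± 0.16 SE, adjusted p = 2.63e-05). Bmf, a BH3-only gene tied to loss of attachment, was called higher at E15.5 than at E13.5 (adjusted p = 0.00197), and Bok, an effector relative, was lower in E13.5 germ cells than in the non-germ fraction (adjusted p = 0.000421).

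Downstream of the mitochondria, 11 of 15 caspase pathway genes were measured and none was called from E11.5 to E13.5. Between E13.5 and E15.5, Diablo, whose protein relieves caspase inhibition, rose by 1.11 ± 0.16 SE (adjusted p = 0.00037). The initiator Casp9 rose by 0.72 (adjusted p = 0.00757) and the executioner Casp6 by 1.24 (adjusted p = 0.00419). Casp6 was undetected on every E13.5 germ cell array, so its value there is an upper limit and this size depends on the offset. Cycs, cytochrome c, fell by 0.55 (adjusted p = 0.0147). Birc5 (survivin), a caspase inhibitor that also serves cell division, fell by 1.16 (adjusted p = 0.00105) and was the 1 of 4 measured inhibitors called. Against non-germ cells, Parp1 and Cycs were higher in germ cells, by 1.58 and 1.25. Htra2, Casp6 and Apaf1 were lower, with differences of -1.97, -1.52 and -1.22 (adjusted p of these genes from 2.61e-05 to 0.00151). The Casp6 size again rests on its undetected E13.5 value.

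Upstream, 12 of 14 genes of the p53 axis were measured. Perp, a p53 target in cell contacts, fell by 2.78 ± 0.37 SE from E11.5 to E13.5 (adjusted p = 0.000581) and rose by 1.29 afterwards (adjusted p = 0.0171), and by 0.84 without E15.5 replicate 2. Cdkn1a (p21) fell by 0.96 from E13.5 to E15.5 (adjusted p = 0.0178). Among 13 regulators of the family, Trib3, a stress-induced pseudokinase, averaged 5.69, 7.50 and 5.70 over the stages and 5.13 in non-germ cells. Trib3 was called up (adjusted p = 0.00603) and then down (adjusted p = 0.00238). Its probe, too, met the filter only through the E13.5 arrays, so this peak is no support for others. Kit, the receptor of a germ cell survival factor, fell by 1.58 after E13.5 (adjusted p = 0.00167). Both Kit (2.46 ± 0.33 SE) and Foxo3 (2.19 ± 0.29 SE), a transcription factor known to act on Bcl2l11, were higher in E13.5 germ cells than in the non-germ fraction (adjusted p = 0.000108 and 9.99e-05). Of the death receptor list 4 of 8 genes were measured. The adaptor Fadd fell by 1.27 after E13.5 (adjusted p = 0.00422).

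For the 3 members with the widest range of group means, the genes with the most similar profile were looked up among the leading probes, as a description. Pearson's r runs over 11 arrays that fall into 4 groups, so it mostly reflects group means. Most like Pmaip1 was Ppif (r = 0.985), the mitochondrial cyclophilin, with means of 8.72, 10.38 and 9.68 over the stages and 8.53 in non-germ cells. Next was Ret (0.976), a receptor tyrosine kinase, with 4.67, 8.72 and 7.44, and 4.62, and then Snx14 (0.974) and Lmbr1l (0.972). Most like the leading Bid probe were Ung (0.993), a uracil-DNA glycosylase, Igfbpl1 (0.993), Isl2 (0.991) and Mreg (0.987), each falling from stage to stage and lowest in non-germ cells. Most like Bcl2 were Spock3 (0.99), Gm2888 (0.98), Mertk (0.977) and Sorcs2 (0.975), with germ cell means of 4.98 to 5.57 and non-germ means of 6.37 to 8.04.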

How the data were processed

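RNA of 11 sorted samples was hybridized to Illumina BeadChips. The deposited non-normalized table holds, per the file headers, a signal intensity and a detection p-value for each probe. A second table of the authors holds the same intensities as a straight line of each array, linear and not centred. How that rescaling was done is not given in the sources used here. Column medians in it were 315.07, 326.05 and 325.53 (E11.5), 325.85, 331.48 and 328.61 (E13.5), 341.75, 316.98 and 328.12 (E15.5), and 321.86 and 318.75 (non-germ). Without rescaling they lay between 230.06 and 315.07.

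In limma 3.58.1 (R 4.3.3), background was corrected by neqc with control moments inferred from detection p-values, followed by an offset of 16, quantile scaling and log2. A probe was kept at a detection p below 0.01 on at least 2 of 11 arrays. A model with 1 mean per group was fitted to all arrays (7 residual and 3.97 prior degrees of freedom) and contrasts were tested two-sided. The annotation gave 1 symbol to 34885 probes, several to 18 and none to 10378, and 99.8% of named probes matched the reference by Entrez number. Members were all probes with a listed symbol. From the other lists, up to 3 rises and 3 falls per comparison could be named, by size among called genes. The members and lists were chosen with earlier results of these data known. The number of arrays limits the precision, and a label of biological replicate does not say how many embryos were pooled. The fit was tested on simulated data. Same-numbered arrays were checked for pairing, and alternatives for background, scaling, filter, probe choice, prior, weights and left-out arrays were run.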

Additional observations from a re-analysis of the deposited data

Results flagged for a closer look

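The change from E13.5 to E15.5 differed from the change from E11.5 to E13.5, by a test of that difference (the second interval minus the first), for 5 of the 20 member probes, where 20.3% of all kept probes did. The difference was -3.56 ± 0.39 SE (adjusted p = 0.000196) for Pmaip1 probe ILMN_2724526, -3.66 (adjusted p = 0.000597) for ILMN_2670625 and -4.40 (adjusted p = 0.000486) for ILMN_1245289, each rising and then falling. Because Pmaip1 was undetected at E11.5, these sizes depend on the offset, and ILMN_1245289 was kept through the E13.5 arrays alone. It was 1.50 ± 0.35 SE (adjusted p = 0.0138) for the leading Bcl2l11 probe, which fell and then rose, and this was lost without E13.5 replicate 3. For Bad it was 1.58 ± 0.48 SE (adjusted p = 0.0415), a fall followed by no called step, and this was lost under 8 alternatives. Groups of 2 or 3 arrays are too small for the test of single outlying arrays.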

How the results depend on the processing

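Of 100 member differences 44 were called, 32 of them under every alternative run for them (up to 22 each). The other 12 were lost under at least 1 alternative, 8 uncalled ones passed under at least 1, and no called difference was reversed. Leaving out 1 array at a time gave 5 to 8 called member probes for E13.5 against E11.5 (2174 to 4471 over all probes), 5 to 9 for E15.5 against E13.5 (6486 to 8482), 8 to 11 for E15.5 against E11.5 (8834 to 10129), 10 to 15 for germ against non-germ cells (8145 to 12295), 3 to 5 for the difference of intervals (2466 to 5385) and 9 to 11 for any stage change (9768 to 11347). The first count was 5 without E11.5 replicate 1, E13.5 replicate 1 or E13.5 replicate 2, and the difference of intervals gave 3 without E13.5 replicate 3. Over all probes the first count was 2174 without E13.5 replicate 1, and the difference of intervals gave 2466 without E13.5 replicate 3. Without a non-germ array, the lone array left was assumed to vary like the other groups.

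With 1 probe per gene, which tests fewer features, the member counts in the same order were 5, 5, 5, 7, 3 and 6, and all-gene counts 2178, 4934, 5783, 6610, 2837 and 6414. On the authors' rescaled intensities the E15.5 against E13.5 member count was 5, and the cause was not tested. Under cyclic loess the share of calls that were higher moved from 45.7% to 57.5% for E15.5 against E13.5 and from 55.3% to 41.8% for germ against non-germ cells. The 15 same-numbered pairs of arrays had correlated deviations of -0.1 to 0.11. With groups of 2 or 3 arrays and no pairs of unlike number compared, this cannot tell whether same-numbered samples share embryos. The main fit took all samples as unpaired. A replicate block gave member counts of 7, 8, 9, 14, 5 and 11 and all-probe counts of 3050, 8057, 9909, 11087, 4003 and 10740, and lost the Bcl2l1 call from E11.5 to E13.5. For 77 named pathway differences the same alternatives were added after seeing the data. Of these calls 26 were lost under at least 1 alternative and none reversed. Lost were Bmf from E13.5 to E15.5 on the authors' rescaled intensities (adjusted p = 0.0969), Cycs in that step without E13.5 replicate 3 (0.0657), the rise of Perp without E13.5 replicate 1 or 2 (up to 0.0679), and Cdkn1a under cyclic loess or without E13.5 replicate 1 or E15.5 replicate 3 (up to 0.0684). A chip block was not run because the headers name no chip.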
